A study of Mus musculus with 8 samples.

Results

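Polycomb repressive complex 2 (PRC2) is described here through 10 of its subunit genes, Ezh1, Ezh2, Eed, Suz12, Rbbp4, Rbbp7, Jarid2, Aebp2, Mtf2 and Phf19, in mouse embryonic stem cells with a Prmt5 knockout. The 10 genes were taken by symbol out of 38991 gene identifiers. RNA was sequenced from 4 iPKO libraries, the Prmt5 knockout, and 4 iPHet libraries, the control genotype. Prmt5 encodes an arginine methyltransferase, and the series asks whether it is needed for primordial germ cells to be specified. Cells of both genotypes were male, of the C57BL/6 strain, below passage 20, and derived from blastocysts at embryonic day 3.5 on feeder cells with a MEK inhibitor and LIF. They were then moved to 2i medium, in which inhibitors keep stem cells in a naive state. The controls received the same 4-hydroxytamoxifen as the knockouts, 2 µM for 48 hours, followed by fresh 2i medium. In the knockout that drug sets off the deletion at the Prmt5 locus. As its name points to a heterozygote, the control may lack an intact copy of Prmt5 too. Most experiments used 1 line of each genotype, per the labels, and a difference of genotype cannot be told apart from a difference of line.

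PRC2 places methyl groups on lysine 27 of histone H3 (H3K27), the mark of genes held silent during development. EZH1 or EZH2 is its catalytic subunit, and EED, SUZ12 and RBBP4 or RBBP7 complete its core. Accessory subunits define separate forms: JARID2 and AEBP2 belong to the form called PRC2.2, and the Polycomb-like proteins MTF2, PHF19 and PHF1 to PRC2.1. Mouse embryonic stem cells survive without PRC2 but then fail to differentiate properly, and silent developmental regulators such as the Hox genes are its classical targets there.

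A pair of core positions can be filled by either of 2 related proteins, so the reads of those genes have to be told apart. The sequences below show the longest stretch of identical bases shared by the coding sequences of each such pair, in capitals, with 25 bases on each side where the coding sequence reaches that far. They come from GENCODE vM21 transcripts, on the coding strand, at coding bases 2190 to 2250 of Ezh1, 2178 to 2238 of Ezh2, 339 to 408 of Rbbp4 and 336 to 405 of Rbbp7.
Ezh1: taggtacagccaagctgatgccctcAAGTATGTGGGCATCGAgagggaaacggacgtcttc
Ezh2: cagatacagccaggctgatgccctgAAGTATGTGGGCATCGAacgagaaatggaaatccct
Rbbp4: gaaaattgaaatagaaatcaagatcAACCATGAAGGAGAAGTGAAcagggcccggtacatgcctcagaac
Rbbp7: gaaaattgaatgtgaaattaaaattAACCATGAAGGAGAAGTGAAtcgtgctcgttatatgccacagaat
The Ezh1 and Ezh2 coding sequences were 70.4% identical over their alignment, and their longest shared stretch was 17 bases. Rbbp4 and Rbbp7 were 78.4% identical with a longest shared stretch of 20 bases. A read of 100 bases, the length sequenced here, is longer than either stretch. No 100-base word of the Ezh1, Ezh2, Jarid2, Aebp2 or Phf19 transcript occurred in a transcript of another gene. Such words made up 29.9% of the Rbbp4 transcript, shared with Gm26722 and Sync, 8.23% of Eed, 7.498% of Mtf2, 5.36% of Rbbp7 and 1.90% of Suz12. For those 5 genes the value can depend on how the authors assigned the shared reads.

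Of the 10 genes, 9 reached the mean of 1 FPKM in either genotype that the test required. FPKM counts fragments per length of transcript and per size of library, so levels of different genes can be compared. Ezh1 and Aebp2 rose in the iPKO libraries, and neither the core genes Ezh2 and Suz12 nor any other member passed the test. The test was limma on log2(FPKM + 1) over all 12462 genes that qualified, and a call needed an adjusted p (Benjamini-Hochberg) under 0.05. The 2 members that rose stand against 6.30% of all tested genes that rose, and the 0 that fell against 9.53% that fell. At an unadjusted p under 0.05, 5 members were higher and 0 were lower, against 12.5% of all tested genes higher and 18.9% lower. The median log2 change of the 9 members was 0.15, and 7 of the 9 were positive. Over all tested genes the median was -0.04, and 43.4% were positive. The iPKO libraries lay wholly above the iPHet libraries for 4 of the 9, Ezh1, Eed, Aebp2 and Mtf2, against 10.1% of all tested genes, and wholly below them for 0, against 15.0%. RNA of a whole culture was measured, so fewer cells of a type and less RNA per cell cannot be told apart.

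The libraries have to be read with 3 facts in mind. Prmt5, the deleted gene, was lower in every knockout library, at 11.8, 14.5, 12.4 and 15.0 FPKM in iPKO against 52.8, 70.8, 54.3 and 72.2 FPKM in iPHet, which left 21.5% of the control level (limma adjusted p = 0.000171). Within a genotype, libraries 1 and 3 and libraries 2 and 4 were close to each other, with median absolute log2 differences of 0.0594 to 0.0698 over 8139 protein-coding genes, against 0.198 to 0.215 between other libraries. Whether any of them came from separate cultures is not labelled, and each p-value covers only the variation among the libraries at hand, possibly technical in kind. The summed FPKM was 411827 to 417539 in iPKO and 417672 to 458856 in iPHet. All 9 stem cell markers checked were above 10 FPKM in each library, and 1 of them, Sox2, fell. Their median log2 change was -0.19. At an unadjusted p under 0.05, 0 of them were higher and 4 lower, against 12.5% and 18.9% of all tested genes. Of 7 markers of feeder fibroblasts, Postn and Lum were listed at 0 throughout and the summed level was 0.977 to 1.77 FPKM in iPKO and 1.34 to 2.44 FPKM in iPHet. The 7 markers of primitive endoderm summed to 684 to 1175 FPKM in iPKO and 1006 to 1099 FPKM in iPHet, nearly all of it Sparc. Of the other 6, Gata6 and Sox17 stayed under 1 FPKM in all libraries, and Dab2 and Col4a1 under 2 FPKM. Gata4 was at 2.23 to 3.23 FPKM in iPKO and 2.00 to 3.28 FPKM in iPHet, and Lama1 at 6.34 to 12.4 FPKM in iPKO and 7.03 to 10.4 FPKM in iPHet. The 3 Zscan4 genes found, markers of cells that resemble the two-cell embryo, were under 1 FPKM in all libraries. What part these cell types have in the changes of the PRC2 genes was not tested.

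**Figure D1:**
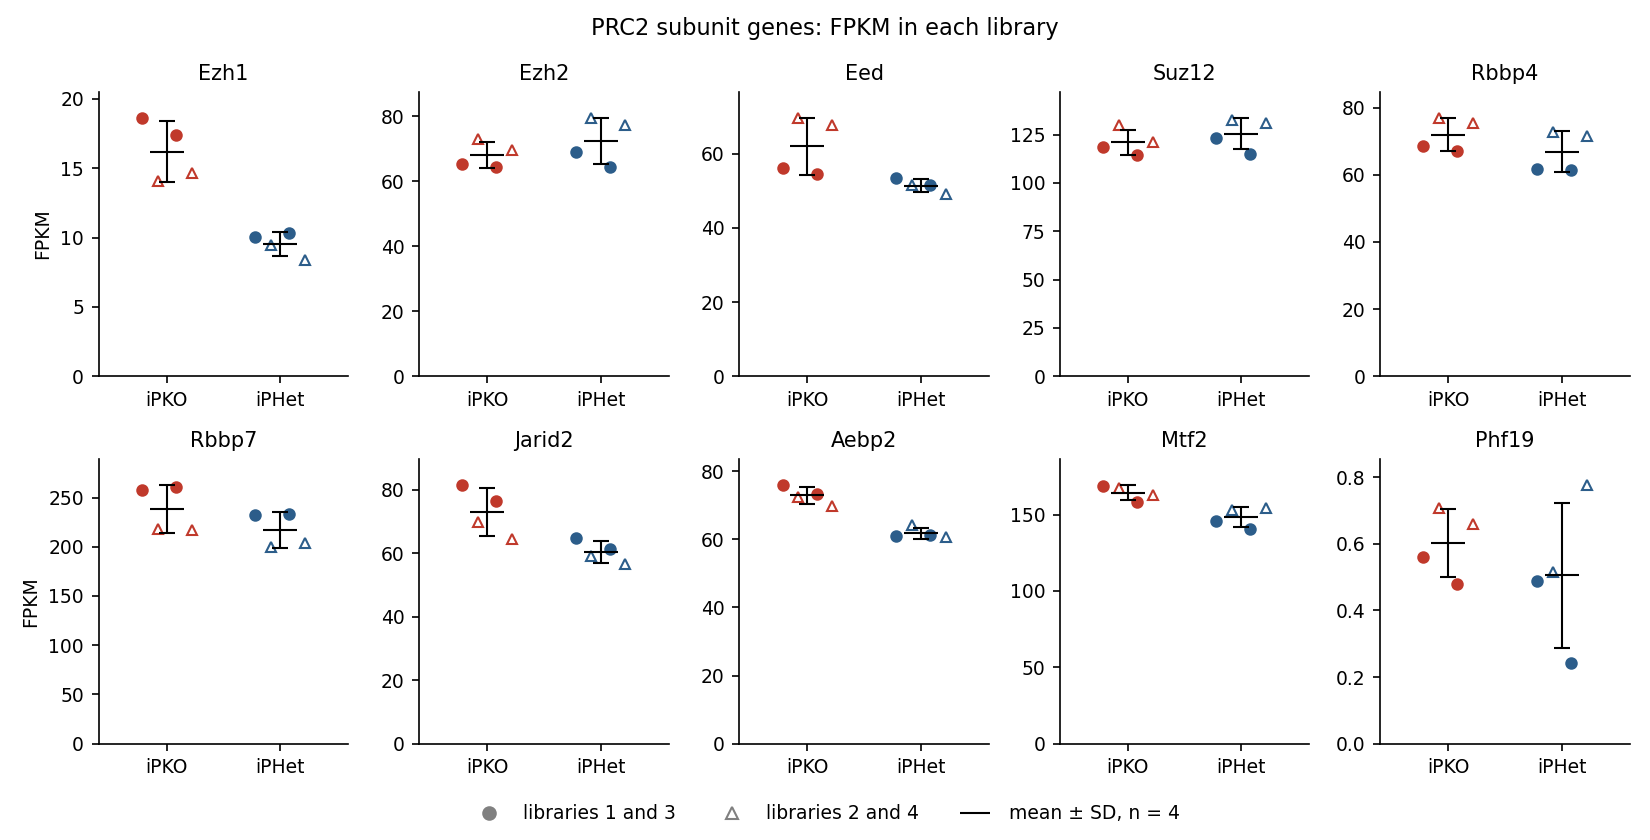
FPKM of the 10 PRC2 subunit genes in each library, iPKO in red and iPHet in blue, with the mean and SD of 4 libraries; filled circles are libraries 1 and 3 and open triangles are libraries 2 and 4. Ezh1, Eed, Aebp2 and Mtf2 have all 4 iPKO libraries above all 4 iPHet libraries, while Ezh2 and Suz12 overlap, and Phf19 stays under 1 FPKM.

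Ezh1 encodes the catalytic subunit that prevails in non-dividing cells in many tissues. Its level was 18.6, 14.1, 17.4 and 14.6 FPKM in iPKO libraries 1 to 4, against 10.05, 9.44, 10.3 and 8.35 FPKM in iPHet libraries 1 to 4. Every iPKO library was above every iPHet library, and in each genotype libraries 1 and 3 were the higher ones. The means were 16.2 ± 2.19 FPKM in iPKO and 9.54 ± 0.88 FPKM in iPHet (SD, n = 4 each), a 1.70-fold ratio. On the log2 scale Ezh1 rose by 0.70 (SE 0.11, limma adjusted p = 0.00482). Within libraries 1 and 3 alone the log2 difference was 0.76, and within libraries 2 and 4 alone it was 0.64. A fit without 1 library still holds that library's close partner, so it cannot show dependence on a pair. The call held without each library in turn, with adjusted p of 0.00854 to 0.0170. It did not hold with libraries 1 and 3 and libraries 2 and 4 averaged, where adjusted p was 0.451, 0.205 with an odd/even term added and 0.0571 over protein-coding genes alone, or with the pair as a random effect (0.128). The gene (ENSMUSG00000006920) is on the minus strand of chromosome 11, from 101191115 to 101226463 in mm10. No other gene of the files overlaps it.

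Ezh2 encodes the catalytic subunit that prevails in dividing cells, embryonic stem cells among them. Its level was 65.3, 73.0, 64.2 and 69.7 FPKM in iPKO, against 68.9, 79.3, 64.2 and 77.1 FPKM in iPHet. The groups overlapped, and libraries 2 and 4 were the higher ones in both genotypes. The means were 68.1 ± 4.06 FPKM in iPKO and 72.4 ± 7.05 FPKM in iPHet (SD, n = 4 each), and the log2 difference of -0.08 (SE 0.08) did not pass the test (limma adjusted p = 0.525). Ezh2 (ENSMUSG00000029687) is on the minus strand of chromosome 6, from 47530274 to 47595341.

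Ezh1 thus made up a larger share of the catalytic subunit transcripts in the knockout. Its share of the summed Ezh1 and Ezh2 FPKM was 22.2%, 16.2%, 21.3% and 17.4% in iPKO, against 12.7%, 10.6%, 13.9% and 9.76% in iPHet. All 4 iPKO libraries were above all 4 iPHet libraries. The mean share was 19.3% ± 2.95 in iPKO and 11.7% ± 1.88 in iPHet (SD, n = 4 each). The summed level of the pair was 84.2 ± 2.24 FPKM in iPKO and 81.9 ± 6.38 FPKM in iPHet, with overlapping ranges, and Ezh2 was the larger part in all 8 libraries. The share was computed from the same values as the test of Ezh1 and is a description.

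**Figure D2:**
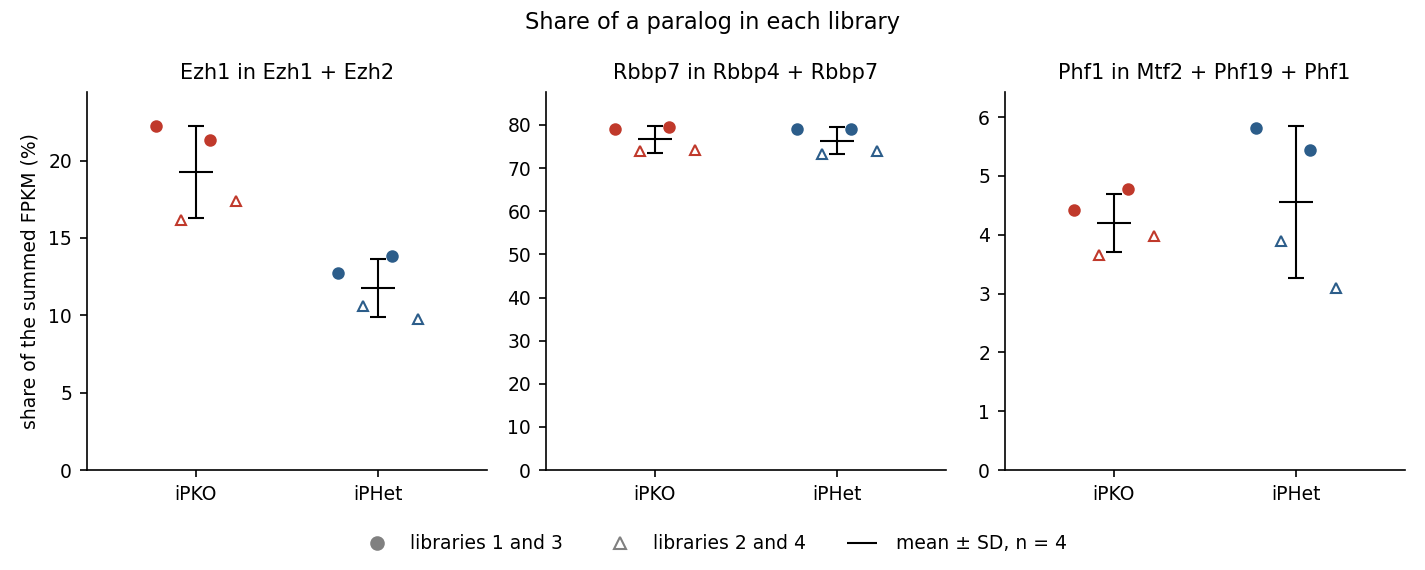
Share of a paralog in the summed FPKM of its pair or trio, in percent, for each library, iPKO in red and iPHet in blue, with the mean and SD of 4 libraries; filled circles are libraries 1 and 3 and open triangles are libraries 2 and 4. The share of Ezh1 is 19.3% in iPKO and 11.7% in iPHet on average with no overlap, while the shares of Rbbp7 and Phf1 overlap.

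The other core genes did not pass the test, although Eed was higher in every knockout library. Eed encodes the subunit that binds trimethylated H3K27 and stimulates the enzyme. Its level was 56.3, 69.5, 54.6 and 67.7 FPKM in iPKO, against 53.4, 51.6, 51.6 and 49.1 FPKM in iPHet. The iPKO libraries 2 and 4 stood well above the rest, and iPKO libraries 1 and 3 were just above the highest iPHet library. The log2 difference was 0.26 (SE 0.09, limma adjusted p = 0.0883), 0.08 within libraries 1 and 3 and 0.44 within libraries 2 and 4. The difference between these was not tested. With quantile normalization the adjusted p was 0.0395, and with libraries 2 and 4 alone it was 0.0112. Of all tested genes, 7.51% rose with quantile normalization and 16.3% with libraries 2 and 4 alone. Eed was not called when any of the 8 libraries was left out (limma adjusted p of 0.0595 to 0.182). Nor was it called with averaged library pairs (0.688), with an odd/even term added (0.424) or over protein-coding genes alone (0.343). With the pair as a random effect the adjusted p was 0.426. Eed (ENSMUSG00000030619) lies on chromosome 7 from 89954656 to 89980983, on the minus strand.

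Suz12 encodes the scaffold subunit on which core and accessory subunits assemble. Its level was 119, 130, 114 and 121 FPKM in iPKO, against 123, 133, 115 and 131 FPKM in iPHet. The groups overlapped almost completely. The log2 difference was -0.05 (SE 0.07, limma adjusted p = 0.656), and its sign turned to 0.03 with quantile normalization. Suz12 (ENSMUSG00000017548) lies on chromosome 11 from 79993106 to 80034123, on the plus strand.

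Rbbp4 and Rbbp7 encode histone-binding WD40 proteins that PRC2 shares with the NuRD and Sin3 deacetylase complexes. Rbbp4 was at 68.5, 77.0, 67.1 and 75.4 FPKM in iPKO, against 61.8, 72.8, 61.5 and 71.6 FPKM in iPHet. Rbbp7, the most abundant member, was at 257, 218, 261 and 217 FPKM in iPKO, against 232, 199, 234 and 204 FPKM in iPHet. Each overlapped between the genotypes, because the odd and even libraries stood apart in both: Rbbp4 was higher in libraries 2 and 4 and Rbbp7 in libraries 1 and 3. The log2 differences were 0.10 (SE 0.08, limma adjusted p = 0.428) for Rbbp4 and 0.13 (SE 0.09, limma adjusted p = 0.391) for Rbbp7. With libraries 1 and 3 alone, 2 against 2, both passed, at adjusted p of 0.0261 for Rbbp4 and 0.0194 for Rbbp7. Libraries 1 and 3 were close to each other within each genotype, and 16.9% of all tested genes rose in that fit. Neither gene passed with averaged library pairs, at limma adjusted p of 0.870 for Rbbp4 and 0.856 for Rbbp7. The share of Rbbp7 in their sum was 76.6% ± 3.04 in iPKO and 76.3% ± 3.16 in iPHet (SD, n = 4 each). Rbbp4 (ENSMUSG00000057236) lies on chromosome 4 from 129307100 to 129335370, on the minus strand, and Rbbp7 (ENSMUSG00000031353) on the X chromosome from 162760402 to 162779092, on the plus strand.

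Of the PRC2.2 genes, Aebp2 rose and Jarid2 was near the threshold. Aebp2 encodes a zinc finger protein that stabilizes PRC2. Its level was 75.8, 72.5, 73.3 and 69.8 FPKM in iPKO, against 61.0, 64.3, 61.1 and 60.8 FPKM in iPHet. Every iPKO library was above every iPHet library, and iPHet 2 was the highest of its group. The means were 72.9 ± 2.49 FPKM in iPKO and 61.8 ± 1.65 FPKM in iPHet (SD, n = 4 each), a 1.18-fold ratio. On the log2 scale Aebp2 rose by 0.23 (SE 0.05, limma adjusted p = 0.0194), with 0.28 within libraries 1 and 3 and 0.18 within libraries 2 and 4. The call was lost without iPKO 1, iPKO 3, iPHet 1, iPHet 3 or iPHet 4, and adjusted p ran from 0.0328 to 0.0566 over the 8 libraries left out in turn. It was also lost with averaged library pairs, at adjusted p of 0.663, 0.397 with an odd/even term and 0.337 over protein-coding genes alone, and with the pair as a random effect (0.376). Aebp2 (ENSMUSG00000030232) lies on chromosome 6 from 140622449 to 140678472, on the plus strand, and no other gene of the files overlaps it.

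Jarid2 encodes a DNA-binding relative of the jumonji demethylases that helps to bring PRC2 to its sites. Its level was 81.3, 69.6, 76.5 and 64.4 FPKM in iPKO, against 64.8, 59.0, 61.2 and 56.6 FPKM in iPHet. Only iPKO 4 lay within the iPHet range, just under iPHet 1. The log2 difference was 0.27 (SE 0.08, limma adjusted p = 0.0684). It passed the test with the replicate block (adjusted p = 0.0149), with quantile normalization (0.0466), with libraries 1 and 3 alone (0.0184) and without iPKO 4 (0.0440). Of all tested genes, 10.9%, 7.51%, 16.9% and 4.63% rose in these fits. Among the 8 libraries left out in turn, iPKO 4 was the only 1 that gave a call. With averaged library pairs or the pair as a random effect, 4 fits in all, Jarid2 was not called (limma adjusted p of 0.288 to 0.671). Jarid2 (ENSMUSG00000038518) lies on chromosome 13 from 44729474 to 44921643, on the plus strand.

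Among the Polycomb-like genes of PRC2.1, which bind unmethylated CpG-rich DNA, Mtf2 was far above the others in both genotypes. It was at 169, 167, 158 and 163 FPKM in iPKO, against 146, 153, 141 and 154 FPKM in iPHet. Every iPKO library was above every iPHet library, but the log2 difference of 0.15 (SE 0.06) did not pass the test (limma adjusted p = 0.121). It passed with quantile normalization (adjusted p = 0.0354) and with libraries 1 and 3 alone (0.0456). Of all tested genes, 7.51% and 16.9% rose in these fits. Mtf2 was not called when any of the 8 libraries was left out (limma adjusted p of 0.143 to 0.246). Nor was it called with averaged library pairs (0.777), with an odd/even term added (0.582) or over protein-coding genes alone (0.596). With the pair as a random effect the adjusted p was 0.615. Phf19 was at 0.559, 0.708, 0.479 and 0.658 FPKM in iPKO, against 0.489, 0.515, 0.241 and 0.775 FPKM in iPHet. Its iPKO libraries lay within the iPHet range, and it was too low to be tested. Mtf2 made up 95.4% ± 0.44 of the summed FPKM of Mtf2, Phf19 and Phf1 in iPKO and 95.1% ± 1.19 in iPHet (SD, n = 4 each). Mtf2 (ENSMUSG00000029267) lies on chromosome 5 from 108065674 to 108109004, on the plus strand, and Phf19 (ENSMUSG00000026873) on chromosome 2 from 34893757 to 34914026, on the minus strand.

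The deposited FPKM of Mtf2 and of Rbbp7 lay below the authors' own lower confidence bound in all 8 libraries. In iPHet 1 the Mtf2 value was 146 FPKM with a bound of 170, and the Rbbp7 value was 232 FPKM with a bound of 268. The same held in all 8 libraries, above or below the bounds, for 16.9% of tested genes, so the levels of these 2 members are less sure than those of the others. The overlapping neighbour of Mtf2, Tmed5, averaged 51.8 FPKM in iPKO and 57.7 FPKM in iPHet, and that of Rbbp7, Txlng, 15.7 FPKM in iPKO and 17.4 FPKM in iPHet. Of the genes that overlap Rbbp4, Gm26722 averaged 21.9 FPKM in iPKO and 21.6 FPKM in iPHet. Strand is not given for the values, so reads of overlapping genes cannot be told apart.

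**Figure D3:**
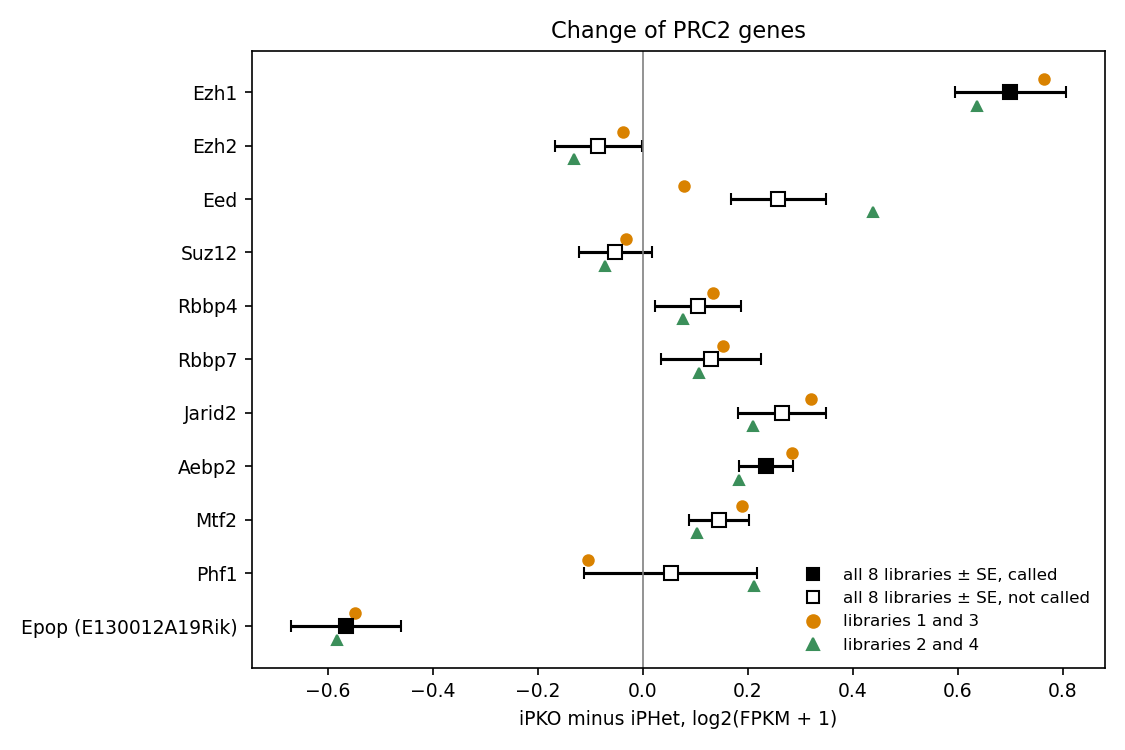
Difference of iPKO minus iPHet on the log2(FPKM + 1) scale for the tested PRC2 subunit genes and the accessory genes Phf1 and Epop; squares are the fit to all 8 libraries with its SE, filled where called, circles the difference within libraries 1 and 3 and triangles within libraries 2 and 4. Ezh1 stands at 0.70 and Epop at -0.56, and the 7 members with a positive change are positive within both library pairs.

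The order of levels was alike at its ends in both genotypes. In iPKO it ran Rbbp7, Mtf2, Suz12, Jarid2, Aebp2, Rbbp4, Ezh2, Eed, Ezh1 and Phf19, and in iPHet it ran Rbbp7, Mtf2, Suz12, Ezh2, Rbbp4, Aebp2, Jarid2, Eed, Ezh1 and Phf19. The first 3 and the last 3 places were the same. Between Jarid2 and Eed in iPKO, and between Ezh2 and Jarid2 in iPHet, each gene's range overlapped that of its neighbour, so those places are not settled. The remaining neighbours had separate ranges.

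For 4 members, Ezh2, Suz12, Rbbp4 and Rbbp7, libraries 2 and 4 differed from libraries 1 and 3 by more than the genotypes did, in both genotypes. Ezh2, Suz12 and Rbbp4 were higher in libraries 2 and 4, by log2 differences of 0.14, 0.11 and 0.17 in iPKO and of 0.23, 0.15 and 0.22 in iPHet. Ezh1, Jarid2 and Rbbp7 were lower in libraries 2 and 4, at -0.31, -0.23 and -0.25 in iPKO and -0.18, -0.12 and -0.21 in iPHet. For Ezh1 and Jarid2, as for Mtf2 and Aebp2, these shifts were smaller than the genotype difference. Eed was higher in libraries 2 and 4 by 0.30 in iPKO and lay at -0.06 in iPHet. The labels give no meaning to the pairs, and the part they have in the differences that missed the test was not tested.

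For the core genes Ezh2, Eed and Suz12, the genes closest in pattern over the 8 libraries were looked up among 8579 genes that averaged 5 FPKM or more. Likeness was the mean absolute difference between deviations from each gene's own mean on the log2 scale. Closest to Ezh2 were Clint1 at 0.0134, Cdv3 at 0.0195 and Bcas2 at 0.0206, against a median of 0.178 over all those genes. Closest to Eed were Kansl2 at 0.0223, Caap1 at 0.0336 and Rfc4 at 0.0356, against a median of 0.224. Closest to Suz12 were Pnpla8 at 0.0209, Cenpe at 0.0227 and Pabpc1 at 0.0231, against a median of 0.167. The 8 libraries share genotype and library pair, so these are descriptions.

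The 250 bases before a RefSeq start of each of the 2 genes that rose are shown as their promoter sequence. For Aebp2, with 3 RefSeq starts, the window free of annotated exons was taken. Letters searched on both strands were GGGCGG, the GC box that Sp1-type factors bind, and CCAAT, and matches are in capitals. The sequences are RefSeq's for GRCm38.p6, the assembly known as mm10, read in the direction of the gene, at chr11:101226464-101226713 on the minus strand and chr6:140624659-140624908 on the plus strand.
Ezh1: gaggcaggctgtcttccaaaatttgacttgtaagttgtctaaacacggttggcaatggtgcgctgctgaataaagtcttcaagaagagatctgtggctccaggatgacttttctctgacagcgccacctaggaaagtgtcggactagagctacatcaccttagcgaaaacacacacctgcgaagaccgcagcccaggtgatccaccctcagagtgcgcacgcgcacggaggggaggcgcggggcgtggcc
Aebp2: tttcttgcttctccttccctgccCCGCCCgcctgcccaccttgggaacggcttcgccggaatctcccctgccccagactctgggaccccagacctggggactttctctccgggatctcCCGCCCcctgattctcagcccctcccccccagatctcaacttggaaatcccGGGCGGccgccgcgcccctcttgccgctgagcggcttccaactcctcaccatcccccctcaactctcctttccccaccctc
The Ezh1 window held no match to either, and the Aebp2 window shown held 3 matches to GGGCGG and none to CCAAT. Of the Aebp2 windows not shown, that starting at 140622413 held no match to either and that starting at 140626635 held 1 to each. Of 32851 windows of the same length, 32.7% held GGGCGG and 33.8% held CCAAT. The share of G and C was 55.2% before Ezh1, and before Aebp2 it was 66.4% in the window shown and 46.4% and 50.8% in the others. No binding was measured in these cells.

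Outside the 10 members, the accessory gene Epop fell. EPOP, listed in the files as E130012A19Rik, joins PRC2.1 and links it to Elongin in mouse embryonic stem cells. Its level was 120, 101, 116 and 93.9 FPKM in iPKO, against 181, 147, 166 and 146 FPKM in iPHet. Every iPKO library was below every iPHet library, and libraries 1 and 3 were the higher ones in both genotypes. The means were 108 ± 12.3 FPKM in iPKO and 160 ± 16.6 FPKM in iPHet (SD, n = 4 each), 67.5% of the control level. On the log2 scale Epop fell by 0.56 (SE 0.11, limma adjusted p = 0.0109). The call held without each library in turn and was lost with averaged library pairs (limma adjusted p = 0.501). It was also lost with an odd/even term added (0.217), over protein-coding genes alone (0.0864) and with the pair as a random effect (0.169). Of the 5 other accessory genes listed, 4 were tested, 0 rose and 1 fell, with a median log2 change of 0.00. Of all tested genes, 6.30% rose and 9.53% fell. At an unadjusted p under 0.05, 0 were higher and 1 lower, against 12.5% and 18.9% of all tested genes. Phf1 averaged 7.23 ± 0.78 FPKM in iPKO and 7.07 ± 1.84 FPKM in iPHet (SD, n = 4 each, limma adjusted p = 0.859).

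PRC1, the second Polycomb complex, places ubiquitin on histone H2A and holds readers of the H3K27 mark. Of its 24 listed genes, 22 were tested, 2 rose and 2 fell, and the median log2 change was -0.11. Of all tested genes, 6.30% rose and 9.53% fell. At an unadjusted p under 0.05, 4 PRC1 genes were higher and 5 lower, against 12.5% and 18.9% of all tested genes. With the replicate block 3 rose and 6 fell, where 10.9% of all tested genes rose and 16.6% fell. Cbx8, a chromobox reader of the mark, averaged 1.14 ± 0.05 FPKM in iPKO and 0.529 ± 0.071 FPKM in iPHet (SD, n = 4 each, limma adjusted p = 0.0170). Phc3, a polyhomeotic subunit, averaged 11.5 ± 2.08 FPKM in iPKO and 7.36 ± 1.19 FPKM in iPHet (SD, n = 4 each, limma adjusted p = 0.0330). The 2 that fell were the chromobox gene Cbx6, at 15.99 ± 0.66 FPKM in iPKO and 19.5 ± 1.40 FPKM in iPHet (SD, n = 4 each, limma adjusted p = 0.0314), and the corepressor gene Bcorl1, at 2.37 ± 0.28 FPKM in iPKO and 3.56 ± 0.63 FPKM in iPHet (SD, n = 4 each, limma adjusted p = 0.0407). The catalytic subunit gene Rnf2 averaged 31.6 ± 2.96 FPKM in iPKO and 31.6 ± 3.71 FPKM in iPHet (SD, n = 4 each). Of these 4 calls, that of Cbx8 alone held without each library in turn, with adjusted p of 0.0320 to 0.0497. With averaged library pairs, or with the pair as a random effect, 0 of the PRC1 genes rose or fell. Cbx8 reached the required mean of 1 FPKM only in iPKO, so it was tested only through that group and lies near the limit.

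Enzymes that remove the Polycomb marks, listed with partners of the deubiquitinase BAP1 that are not enzymes, gave 8 tested genes of 9, with 2 that rose, 1 that fell and a median log2 change of -0.02. Of all tested genes, 6.30% rose and 9.53% fell. At an unadjusted p under 0.05, 3 of the 8 were higher and 2 lower, against 12.5% and 18.9% of all tested genes. With the replicate block 3 rose and 2 fell, against 10.9% and 16.6% of all tested genes. Usp16, an H2A deubiquitinase, was at 19.9, 24.0, 21.0 and 22.0 FPKM in iPKO, against 15.8, 15.3, 15.2 and 16.1 FPKM in iPHet. The groups did not overlap, and Usp16 rose by 0.45 on the log2 scale (SE 0.07, limma adjusted p = 0.00462), also without each library in turn. Its call was lost with averaged library pairs (limma adjusted p = 0.494) and with an odd/even term added (0.238). It was also lost over protein-coding genes alone (0.122) and with the pair as a random effect (0.205). Usp16 was the only enzyme among these 3 calls. Asxl2 and Foxk2, partners of BAP1, changed in opposite directions. Asxl2 averaged 22.1 ± 0.44 FPKM in iPKO and 18.99 ± 1.08 FPKM in iPHet (SD, n = 4 each, limma adjusted p = 0.0439). Foxk2 averaged 34.8 ± 1.29 FPKM in iPKO and 40.4 ± 2.01 FPKM in iPHet (SD, n = 4 each, limma adjusted p = 0.0436). Neither call held when any of the 8 libraries was left out. The H3K27 demethylase genes did not pass. Kdm6a averaged 16.9 ± 1.20 FPKM in iPKO and 14.7 ± 1.25 FPKM in iPHet (SD, n = 4 each, limma adjusted p = 0.145, with the replicate block 0.0362). Kdm6b averaged 16.4 ± 2.03 FPKM in iPKO and 17.5 ± 1.11 FPKM in iPHet (SD, n = 4 each, limma adjusted p = 0.511).

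Among 18 genes of other complexes that hold RBBP4 or RBBP7, all tested, 0 rose and 1 fell, and the median log2 change was -0.07. Of all tested genes, 6.30% rose and 9.53% fell. At an unadjusted p under 0.05, 0 were higher and 4 lower, against 12.5% and 18.9% of all tested genes. With the replicate block 2 fell, against 16.6% of all tested genes. Chaf1b, a subunit of the chromatin assembly factor CAF-1, averaged 40.8 ± 2.28 FPKM in iPKO and 50.8 ± 3.72 FPKM in iPHet (SD, n = 4 each) and fell by 0.31 on the log2 scale (limma adjusted p = 0.0227). Hdac1, a deacetylase of NuRD and Sin3, averaged 172 ± 9.09 FPKM in iPKO and 202 ± 12.2 FPKM in iPHet (SD, n = 4 each, limma adjusted p = 0.0529). The call of Chaf1b held in 3 of the 8 fits that left out a library.

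**Figure D4:**
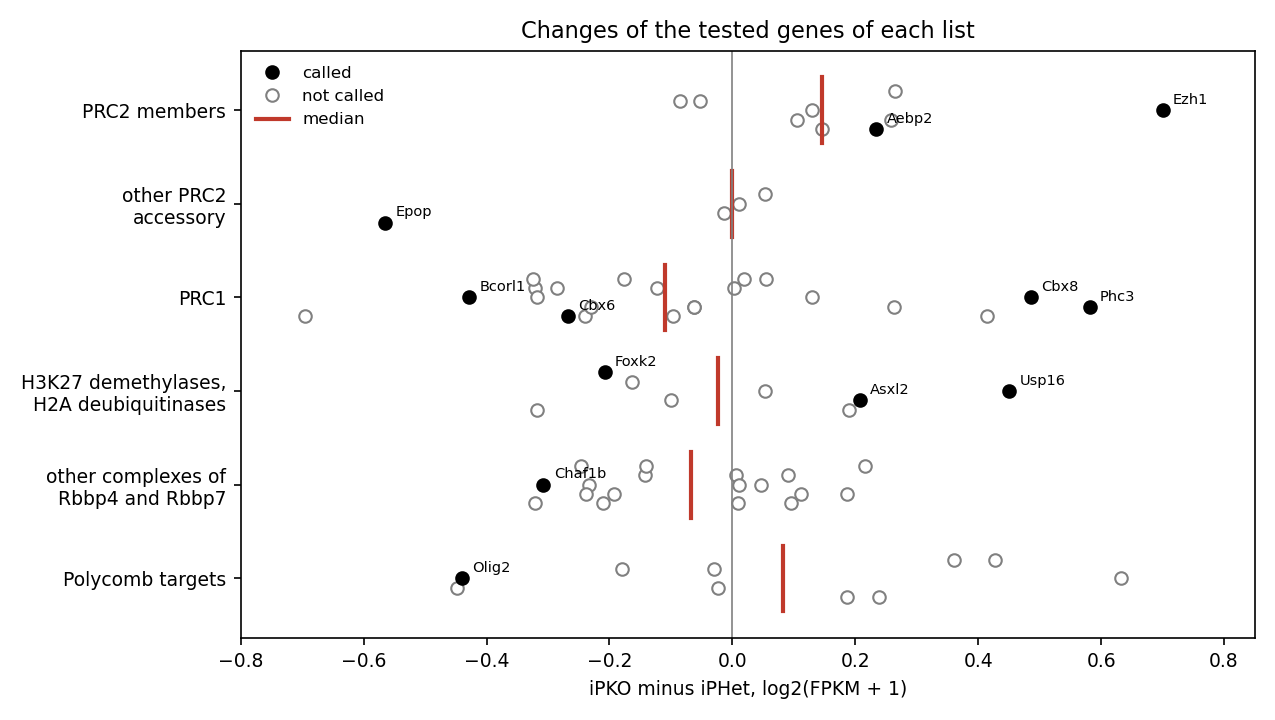
Difference of iPKO minus iPHet on the log2(FPKM + 1) scale for each tested gene of 6 lists, with called genes filled and named, genes not called open, and the list median as a red line. The median of the 9 PRC2 members is 0.15 and that of the 22 PRC1 genes is -0.11, against -0.04 over all tested genes.

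A list of 54 genes that PRC2 is known to hold silent in embryonic stem cells was read last. Of these, 44 stayed under the mean that the test required, 39 of them below 1 FPKM in every library. The 10 that were tested averaged at least 1 FPKM in both genotypes, so they are the genes of the list that were expressed. Of them 0 rose and 1 fell, against 6.30% and 9.53% of all tested genes, with a median log2 change of 0.08. At an unadjusted p under 0.05, 4 were higher and 1 lower, against 12.5% and 18.9% of all tested genes. With the replicate block 2 rose, Eomes and Sox1, against 10.9% of all tested genes. Neither passed in the 4 fits on library pairs, where adjusted p was 0.0702 to 0.594 for Eomes and 0.214 to 0.663 for Sox1. Their summed level over all 54 genes was 64.2 to 79.5 FPKM in iPKO and 65.9 to 72.4 FPKM in iPHet.

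Olig2, a neural transcription factor, fell. It was at 10.9, 11.5, 10.6 and 12.2 FPKM in iPKO, against 14.8, 17.4, 13.6 and 17.0 FPKM in iPHet, a log2 change of -0.44 (SE 0.09, limma adjusted p = 0.0147). The groups did not overlap, and the call held without each library in turn. It was lost in the 4 fits on library pairs, and limma adjusted p reached 0.536 over the alternatives. Eomes, a T-box factor of mesendoderm and trophoblast, was at 14.3, 9.74, 14.9 and 9.92 FPKM in iPKO, against 8.58, 6.11, 9.45 and 5.93 FPKM in iPHet. Its groups did not overlap, and libraries 1 and 3 were the higher ones in both genotypes. The log2 difference of 0.63 missed the threshold (limma adjusted p = 0.0567) and passed it with the replicate block (0.00332). Sox1, a neural transcription factor, was at 1.51, 2.06, 1.37 and 1.91 FPKM in iPKO, against 0.951, 1.28, 0.921 and 0.896 FPKM in iPHet. Its groups did not overlap either, and its log2 difference was 0.43 (limma adjusted p = 0.0524, with the replicate block 0.0306). Cdkn2a, a cell cycle inhibitor gene, averaged 19.3 ± 1.19 FPKM in iPKO and 16.2 ± 1.53 FPKM in iPHet (SD, n = 4 each, limma adjusted p = 0.07999). The groups of Cdkn2a did not overlap.

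**Figure D5:**
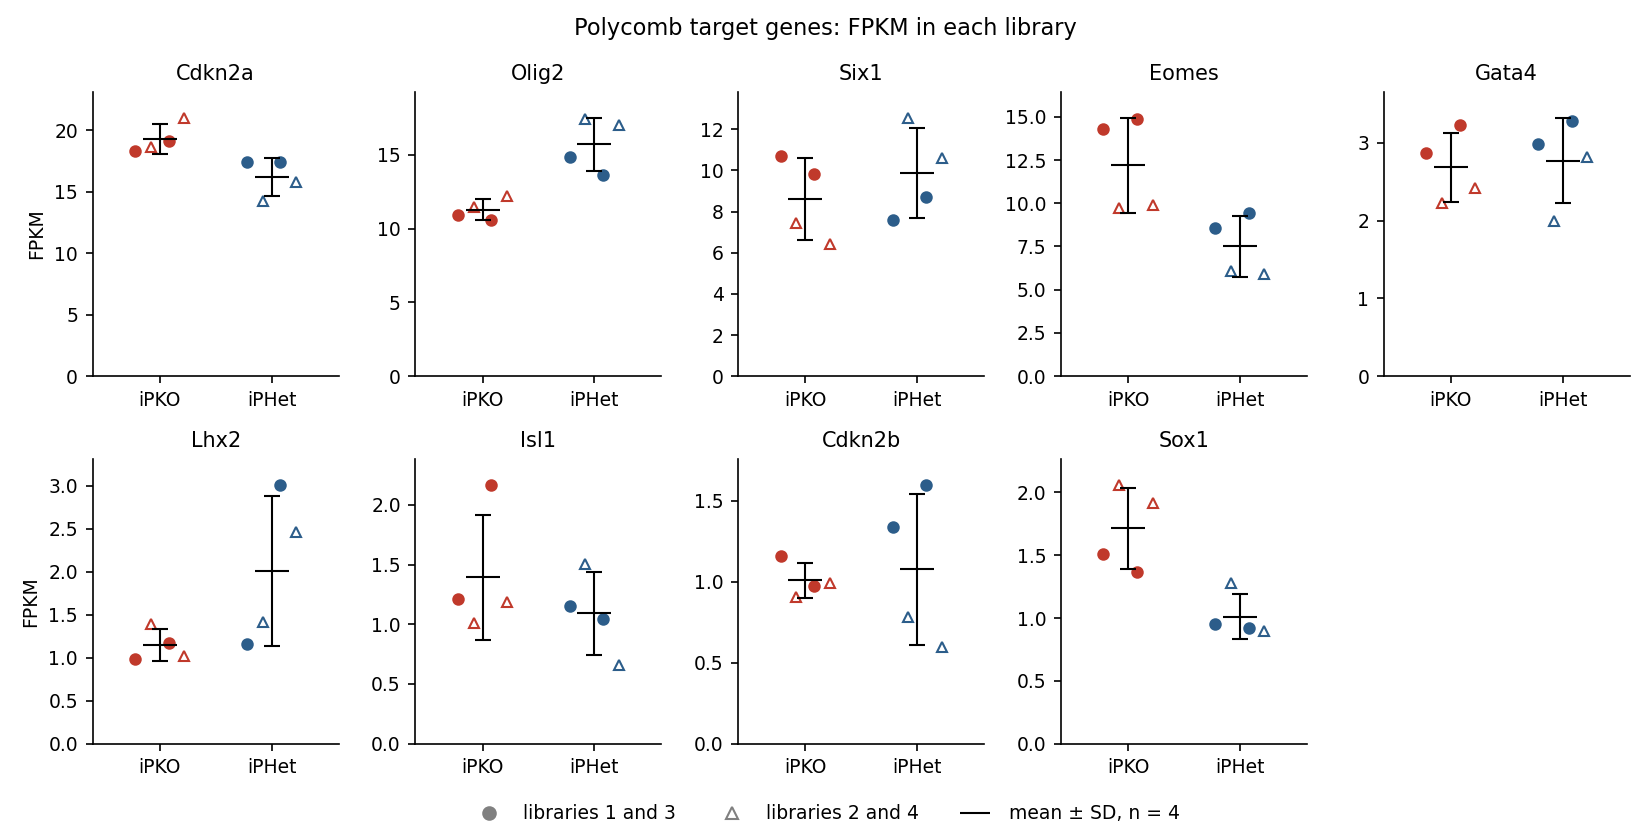
FPKM in each library of 9 of the 10 Polycomb target genes that were tested, iPKO in red and iPHet in blue, with the mean and SD of 4 libraries; filled circles are libraries 1 and 3 and open triangles are libraries 2 and 4. All 4 iPKO libraries lie below iPHet for Olig2 and above it for Eomes, Sox1 and Cdkn2a, and of the genes plotted only Olig2 passed the test.

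The Hox genes of that list, 19 in number, stayed low. Their summed level was 8.85, 4.99, 9.67 and 4.34 FPKM in iPKO, against 6.45, 2.97, 6.09 and 3.03 FPKM in iPHet. Libraries 1 and 3 were higher in both genotypes, and the genotypes overlapped over all libraries. Within libraries 1 and 3, and likewise within libraries 2 and 4, both iPKO sums were above both iPHet sums. Of the 19 genes, 16 were below 1 FPKM in every library, 14 had the higher mean in iPKO, 4 the lower, and 1 was listed at 0 throughout. The 26 other target genes under the filter split evenly, with 12 higher on average in iPKO, 13 lower and 1 listed at 0 throughout. The sums were not tested.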

How the data were processed

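RNA of 8 libraries was prepared with a TruSeq kit and sequenced as paired reads of 100 bases, per the labels' protocols. Values are FPKM for each gene in each library, deposited by the authors with confidence bounds beside them. The submitters' processing notes name Trimmomatic and build mm10. Not given in the sources used here are the aligner, the program behind the FPKM values, their scaling between libraries, and strand. Depth is unknown, since the files hold no counts.

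The 39013 rows of each file gave 38991 identifiers, rows of 19 identifiers being summed. Genes averaging 1 FPKM or more in 1 or both genotypes were tested on log2(FPKM + 1) with limma 3.58.1 and an intensity trend in R 4.3.3, with all 8 libraries, no covariate and Benjamini-Hochberg adjustment (threshold 0.05). The pseudocount of 1 FPKM understates changes of low genes. Fold values are ratios of mean FPKM. Only called genes are said to rise or fall. The script was tested on simulated data with independent libraries, without the likeness of library pairs seen here.

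The members, gene lists and tests were chosen with earlier results of these data known. Named genes were the 10 members, Prmt5, every called gene of each list up to 4, or the 2 with the smallest p where fewer than 2 were called, and the 3 genes closest in pattern to Ezh2, Eed and Suz12. Sox17, Gata6, Gata4, Lama1, Dab2, Postn, Lum, Rnf2, Kdm6a, Kdm6b, Eomes, Cdkn2a and overlapping genes were named after their values were seen. Zscan4a was not analysed here, and the values of 1 target gene are not reported here.

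Deviations from the group means correlated at 0.104, 0.162, 0.204 and 0.107 between same-numbered libraries of the genotypes, each above the limit of 0.1 set for pairing. The pairing comes from the data, not the labels, and is not clearly specific, since iPKO 4 and iPHet 2 correlated at 0.124. Alternatives were a pseudocount of 0.1, no filter, a minimum of 5 FPKM, quantile normalization, the replicate block, each library left out, pair averages with and without an odd/even term, the pair as a random effect, and odd or even libraries alone. Transcripts and gene types are GENCODE vM21, which held 96.0% of identifiers, and promoters are RefSeq GRCm38.p6.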

Additional observations from a re-analysis of the deposited data

Results flagged for a closer look

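In 3 groups of 4 libraries, 1 library stood apart from the other 3 by Dixon's 95% limit, among 29 named genes screened in both genotypes. Chance alone singles out about 1 in 20 such groups when libraries are independent, and 58 groups were screened. The 3 found are about what that rate gives, and the libraries here came in close pairs. Chaf1b was at 44.2 FPKM in iPKO 4, against 39.1 to 39.9 FPKM in the other iPKO libraries. Aebp2 was at 64.3 FPKM in iPHet 2, against 60.8 to 61.1 FPKM in the other iPHet libraries, and its call held without that library. Sox1 was at 1.28 FPKM in iPHet 2, against 0.896 to 0.951 FPKM in the other iPHet libraries.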

How the results depend on the processing

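No named gene or count reversed a called direction under the 19 alternatives. The filter, replicate block, pair average and random effect fits return the same log2 difference as the main fit, so none could reverse a direction. The counts moved with how the near-identical library pairs were treated. The members that rose, 2 in all, numbered 5 with quantile normalization (7.51% of all genes rose there), 3 with the replicate block (10.9%), 6 with odd-numbered libraries only (16.9%), 3 with even-numbered ones only (16.3%), and 1 to 3 without each library in turn. With pair averages, with an odd/even term added, with that term over protein-coding genes, and with the pair as a random effect, 0 members rose by limma. At an unadjusted p under 0.05, 1, 1, 1 and 2 members were higher in these 4 fits, against 3.85%, 6.50%, 7.81% and 4.90% of all genes tested in them. In all 20 fits 0 fell, and Ezh2 alone was lower at an unadjusted p under 0.05, in the even-numbered libraries.

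Over all genes, 785 rose and 1188 fell. The counts were 1355 and 2072 with the replicate block, 5 and 2 with pair averages, 4 and 2 with an odd/even term added, 81 and 117 over protein-coding genes, 23 and 29 with the pair as a random effect, 2111 and 3205 in odd-numbered libraries and 2036 and 2545 in even-numbered ones. Without each library in turn 522 to 591 rose and 742 to 861 fell. Quantile normalization gave 936 and 946. The replicate block changed the call of Jarid2, Kdm6a, Eomes and Sox1 and of no other gene described. In the 4 fits on library pairs the called genes of the lists also lost their calls, and Prmt5 lost its call in 2 of them. Jarid2 and Kdm6a, gained with the block, were not called there (adjusted p of 0.288 to 0.671 and 0.436 to 0.721). Depth is unknown, and 4 libraries per genotype limit the precision. The cause of these shifts was not tested.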
